A study of Mus musculus with 12 samples.

Results

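Nuclear-encoded respiratory chain genes are the genes whose mRNAs are made in the nucleus and whose proteins enter the electron transport chain and ATP synthase of mitochondria. The members were the protein-coding genes on nuclear chromosomes whose symbols begin with Nduf, Uqcr, Atp5 or Cox followed by a digit, together with Sdha to Sdhd. This rule used names only and no measured value. It found 104 of the 27179 genes counted, with 46 in complex I, 4 in complex II, 8 in complex III, 29 in complex IV and 17 in complex V. The low-count filter kept 95 of them for testing.

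The cells were mouse hippocampal neurons from newborn pups, labelled C57BL/6 in all 12 libraries (the methods of the study also name FVB mice as a source of neurons), kept for 17 or 18 days in vitro on Transwell inserts, cups with a porous membrane that somas sit on and neurites (dendrites and axons) grow through. Cultures received the proteasome inhibitor MG132 at 10 uM for 7 h or DMSO (Ctrl), and somas and neurites were collected apart. Both fractions of both treatments make 4 groups, each with 3 polyA-selected libraries. The labels name no transgene or engineered allele. Nothing in the labels says whether replicates came from separate cultures, so p-values measure the spread between these libraries.

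Complex I (NADH dehydrogenase) and complex II (succinate dehydrogenase) pass electrons to ubiquinone. Complex III (cytochrome bc1) passes them to cytochrome c and complex IV (cytochrome c oxidase) to oxygen. Protons pumped on the way drive complex V, the ATP synthase. A few central subunits are encoded in mitochondrial DNA, and all other subunits and the assembly factors are translated from nuclear mRNAs and imported. Neurons rely heavily on this pathway, and mitochondria are found in their dendrites and axons as well as in the soma.

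Total counts ranged from 4247610 to 22166347 per library, with the fewest in MG132 somas replicate 2. Members together received 10821 to 91166 counts per library, and the median tested member had 60 to 605. Mitochondrial genes took 9.78% to 29.19% of the counts, and the single gene with the most counts took 12.4% to 33.39%. Levels are therefore given as CPM, counts scaled to a common library size, after TMM scaling, which sets the typical gene level between libraries. As a share of all raw counts, members took 0.255% to 0.516% in somas and 0.228% to 0.411% in neurites, and these ranges overlap. Every neurite result below is thus relative to the typical nuclear gene and not to all RNA in a library.

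Promoters are shown for 5 members whose mRNA differed between fractions or after MG132, because respiratory genes are known to share binding motifs for NRF1, the ETS factor GABP (also called NRF2 in this field), YY1 and ERR. Each window spans 250 bases before to 50 bases after the start of the RefSeq gene (GRCm38.p6, all on the minus strand). Capitals mark matches on either strand to GCGCANGCG (NRF1), CCGGAAG (ETS) and AAGATGGCG (YY1). Atp5e lies at chr2:174464052-174464351, Atp5k at chr5:108434350-108434649, Cox6a1 at chr5:115348909-115349208, Ndufc1 at chr3:51408906-51409205 and Cox7a2l at chr17:83514284-83514583.
Atp5e: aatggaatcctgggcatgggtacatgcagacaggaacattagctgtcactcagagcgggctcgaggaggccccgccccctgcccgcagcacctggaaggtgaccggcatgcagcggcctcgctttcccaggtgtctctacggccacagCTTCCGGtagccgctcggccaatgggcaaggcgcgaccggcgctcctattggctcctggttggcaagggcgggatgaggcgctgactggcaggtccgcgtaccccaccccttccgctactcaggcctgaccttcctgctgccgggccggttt
Atp5k: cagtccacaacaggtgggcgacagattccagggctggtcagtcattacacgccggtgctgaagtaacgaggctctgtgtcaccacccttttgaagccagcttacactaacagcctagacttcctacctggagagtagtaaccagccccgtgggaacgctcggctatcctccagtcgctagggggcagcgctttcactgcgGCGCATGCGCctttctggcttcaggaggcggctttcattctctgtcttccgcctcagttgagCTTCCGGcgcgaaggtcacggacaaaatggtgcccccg
Cox6a1: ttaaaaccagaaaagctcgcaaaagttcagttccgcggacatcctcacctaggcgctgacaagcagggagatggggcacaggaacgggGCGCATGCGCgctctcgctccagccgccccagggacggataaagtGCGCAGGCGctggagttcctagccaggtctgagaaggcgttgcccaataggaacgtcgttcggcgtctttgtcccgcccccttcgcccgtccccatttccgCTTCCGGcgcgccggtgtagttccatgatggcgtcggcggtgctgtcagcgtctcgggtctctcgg
Ndufc1: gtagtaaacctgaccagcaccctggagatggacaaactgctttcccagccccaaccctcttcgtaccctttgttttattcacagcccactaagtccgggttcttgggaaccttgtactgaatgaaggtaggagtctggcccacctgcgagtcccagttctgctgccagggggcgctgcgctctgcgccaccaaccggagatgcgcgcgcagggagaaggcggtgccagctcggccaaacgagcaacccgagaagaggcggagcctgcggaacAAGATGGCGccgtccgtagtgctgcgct
Cox7a2l: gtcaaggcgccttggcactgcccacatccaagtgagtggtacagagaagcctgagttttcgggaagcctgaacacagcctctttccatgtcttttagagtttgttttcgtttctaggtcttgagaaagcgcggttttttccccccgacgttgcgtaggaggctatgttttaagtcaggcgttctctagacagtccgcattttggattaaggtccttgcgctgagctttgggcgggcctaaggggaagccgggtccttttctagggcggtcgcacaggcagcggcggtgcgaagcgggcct
Atp5e, Atp5k and Cox6a1 each hold 1 ETS match. Atp5k also holds 2 NRF1 matches and Cox6a1 holds 3, some of which overlap on opposite strands. Ndufc1 holds 1 YY1 match just after its start, and Cox7a2l holds none of these letters. Promoters were found for 84 members. NRF1 letters occurred in 26.2% of them against 14.7% of 10621 other tested coding genes and 7.03% of all 27025 genes with a promoter. The shares for ETS were 28.6%, 18.9% and 9.93%, and those for YY1 were 10.7%, 3.28% and 1.64%. ERR letters (TCAAGGTCA) were in 2.38%, 0.301% and 0.466%. A match describes the letters and not binding.

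Per kilobase of exon, the highest member level in Ctrl somas was that of Atp5b, the catalytic beta subunit of ATP synthase, at 178.8 ± 42.8 CPM per kb (SD, n = 3). Cox4i1, a ubiquitous complex IV subunit, followed at 141.4 ± 36.4 CPM per kb, within the spread of Atp5b. Cox6b1, Uqcrh, Atp5a1 and Cox6c lay at 122.5, 120.2, 113.9 and 111.3 CPM per kb, and these neighbours did not differ beyond their SDs. The reference subunits of the other complexes were lower. Sdha, the flavoprotein of complex II, stood at 59.6 ± 10.8, Uqcrc1, a core protein of complex III, at 31.2 ± 4.64 and Ndufs1, an iron-sulfur subunit of complex I, at 28.4 ± 3.63 CPM per kb.

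Of the 9 members left out of tests, Uqcr11, Ndufb4b, Ndufb4c and Cox8c had a count of 0 in every library. The others reached at most 3.44 CPM in any library. They were Sdhd, a membrane anchor of complex II, Atp5g2, a gene for ATP synthase subunit c, and the muscle or testis forms Cox6a2, Cox7b2 and Cox8b. Uqcr11 and Sdhd encode subunits that every respiring cell uses, so their counts are given as listed and not as absence of the mRNA.

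In Ctrl cultures many respiratory mRNAs were more abundant in neurites than in somas relative to the typical gene. Of 95 tested members, 28 (29.5%) passed the test (edgeR quasi-likelihood, adjusted p under 0.05 over 14185 genes) as higher in neurites, where 10.2% of all tested genes did. None passed as lower, against 4.65% of all genes, and 0 members had an unadjusted p under 0.05 in that direction by edgeR and 1 by DESeq2, which called 0. The median log2 fold change was 0.59 over tested members and -0.04 over all genes, but with libraries scaled by total counts these medians were -0.06 and -0.70, and 1 member (Cox7a2l) was higher and 2 (Cox15 and Uqcrc1) were lower. The distance between both medians was 0.63 with TMM factors and 0.64 with total counts. Without Ctrl somas replicate 2 the count was 14, and without Ctrl somas replicate 3 it was 16. The higher members comprised 9 of complex I, 1 of complex II, 3 of complex III, 9 of complex IV and 6 of complex V.

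Cox7a2l, a factor that joins complexes III and IV into supercomplexes, differed most. It was at 18.4, 14.8 and 20.5 CPM in Ctrl somas and at 47.6, 73.6 and 99.0 CPM in Ctrl neurites. The lowest neurite library exceeded the highest soma library, and the log2 fold change was 2.04 ± 0.28 (SE, adjusted p = 0.00012). Uqcrq, a small subunit of complex III, was at 18.3, 8.98 and 18.0 CPM in somas and at 51.1, 42.9 and 40.5 CPM in neurites, a log2 fold change of 1.56 ± 0.30 (adjusted p = 0.00204). Cox8a, the smallest complex IV subunit, was at 38.4, 32.3 and 35.3 CPM in somas and at 140.0, 80.1 and 83.2 CPM in neurites. Its groups did not overlap either, although neurite replicate 1 was well above the other two (log2 1.51 ± 0.23, adjusted p = 0.000333).

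Atp5k, the e subunit of ATP synthase, was at 28.0, 22.4 and 22.4 CPM in Ctrl somas and at 100.5, 46.0 and 45.2 CPM in Ctrl neurites, a log2 fold change of 1.39 ± 0.34 (adjusted p = 0.0112). Ndufa2, an accessory subunit of complex I, was at 16.5, 10.5 and 9.60 CPM in somas and at 38.4, 24.0 and 34.3 CPM in neurites, with a log2 fold change of 1.39 ± 0.26 (adjusted p = 0.00208). Both were higher in each of the 3 same-numbered pairs. The reference subunits were chosen as 1 per complex. Ndufs1 was at 78.8, 64.8 and 83.3 CPM in Ctrl somas and at 78.9, 68.8 and 65.1 CPM in Ctrl neurites, and its groups overlapped (log2 -0.09 ± 0.17, adjusted p = 0.777). Uqcrc1 gave a log2 fold change of -0.20 ± 0.18 (adjusted p = 0.535) and Atp5b one of 0.24 ± 0.20 (adjusted p = 0.466). Cox4i1, which is also short, did pass with 0.91 ± 0.22 (adjusted p = 0.0123).

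**Figure D1:**
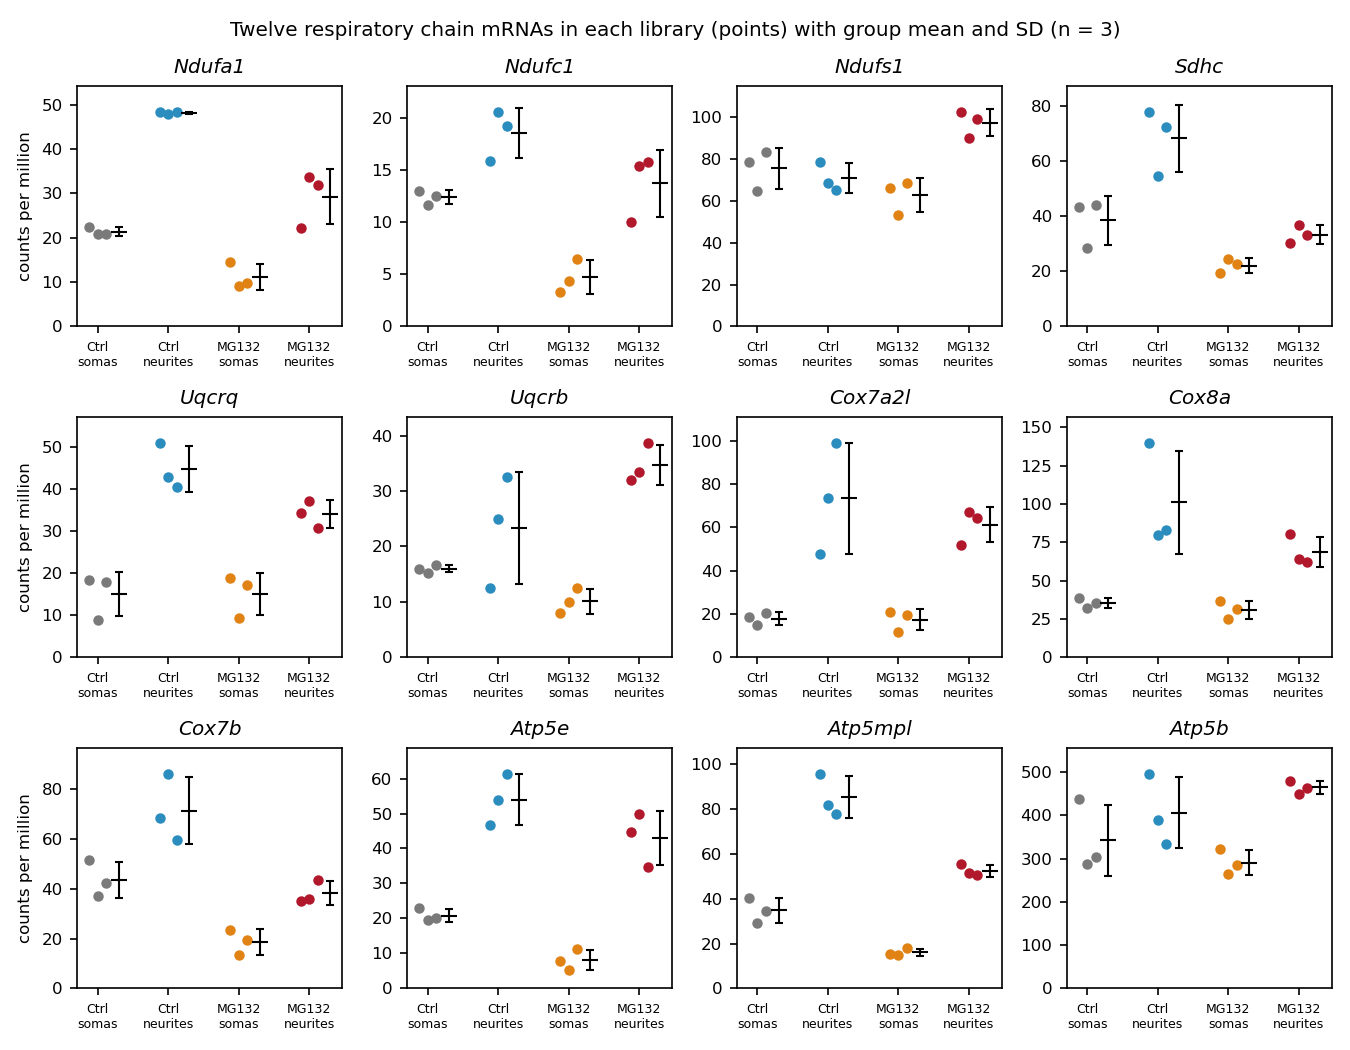
TMM-scaled CPM of 12 members in each of the 12 libraries, with coloured points for libraries and black bars for the group mean and SD (n = 3). Cox7a2l and Cox8a were higher in both neurite groups than in both soma groups in every library, while Ndufs1 was set apart in MG132 neurites, where all 3 libraries lay between 90.3 and 102.7.

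After MG132 the same comparison called 43 of 95 tested members (45.3%) as higher in neurites, where 11.4% of all genes were called. None was called lower (6.35% of all genes), and neither edgeR nor DESeq2 gave a member an unadjusted p under 0.05 in that direction. The median log2 fold change was 0.78 over members and -0.08 over all genes, and with total counts it was -0.01 and -0.86, with 3 members higher (Atp5e, Atp5mpl and Cox7a2l) and 2 lower (Cox11 and Cox15). The 43 members comprised 20 of complex I, 4 of complex III, 9 of complex IV and 10 of complex V, and no member of complex II, where the fit with a replicate block also called Sdha (adjusted p = 0.006) and Sdhc (adjusted p = 0.0275).

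Atp5e, the epsilon subunit of the F1 motor, differed most among called members. It was at 7.77, 5.35 and 11.2 CPM in MG132 somas and at 44.7, 49.7 and 34.6 CPM in MG132 neurites, with every neurite library far above the highest soma library. The log2 fold change was 2.37 ± 0.26 (adjusted p = 2.42e-05). Atp5mpl, a small proteolipid bound to the membrane part of ATP synthase, was at 15.2, 15.1 and 18.0 CPM in MG132 somas and at 55.7, 51.3 and 50.8 CPM in MG132 neurites, a log2 fold change of 1.702 ± 0.19 (adjusted p = 2.19e-05). Atp5h, the stalk subunit d, was at 15.0, 3.97 and 17.0 CPM in MG132 somas and at 45.4, 41.5 and 48.3 CPM in MG132 neurites. Its log2 fold change was 1.87 ± 0.37 (adjusted p = 0.00267), but 36.5% of the 75-base windows of its transcript also occur in other genes, so its read count is uncertain.

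Uqcrb, a small ubiquinone-binding subunit of complex III, was at 7.95, 9.91 and 12.5 CPM in MG132 somas and at 31.9, 33.4 and 38.7 CPM in MG132 neurites, a log2 fold change of 1.77 ± 0.30 (adjusted p = 0.000915). Its shared windows came to 29.1%. Cox7a2l was at 20.9, 11.9 and 19.6 CPM in MG132 somas and at 52.0, 67.2 and 64.3 CPM in MG132 neurites (log2 1.79 ± 0.28, adjusted p = 0.000386). The reference subunits Ndufs1, Atp5b and Cox4i1 were also called here, with log2 fold changes of 0.63 ± 0.17 (adjusted p = 0.0164), 0.68 ± 0.20 (adjusted p = 0.027) and 0.70 ± 0.22 (adjusted p = 0.04). With total counts these 3 turned to -0.18, -0.13 and -0.10. Sdha, at 0.51 ± 0.18 (adjusted p = 0.0699), and Uqcrc1, at 0.35 ± 0.18 (adjusted p = 0.216), were not called.

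The neurite comparisons in Ctrl and after MG132 share no library. Of the members called higher, 27 were called in both, which is 96.4% of those in Ctrl and 62.8% of those after MG132. Over all tested genes 1452 and 1615 were called higher, but their overlap is not given here. Whether the overlap is particular to members was not tested. Over the 95 tested members both log2 fold changes correlated with r = 0.71 (rho = 0.73), and over all 14185 genes with r = 0.60, given as a description across genes that share libraries within each comparison. Sdhc, the other membrane anchor of complex II, was the member called in Ctrl and not after MG132 (0.82 ± 0.22, adjusted p = 0.0176). Its value after MG132 was 0.60 ± 0.22 (adjusted p = 0.0709, or 0.0275 with the replicate block), and the change in this ratio was not called.

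**Figure D2:**
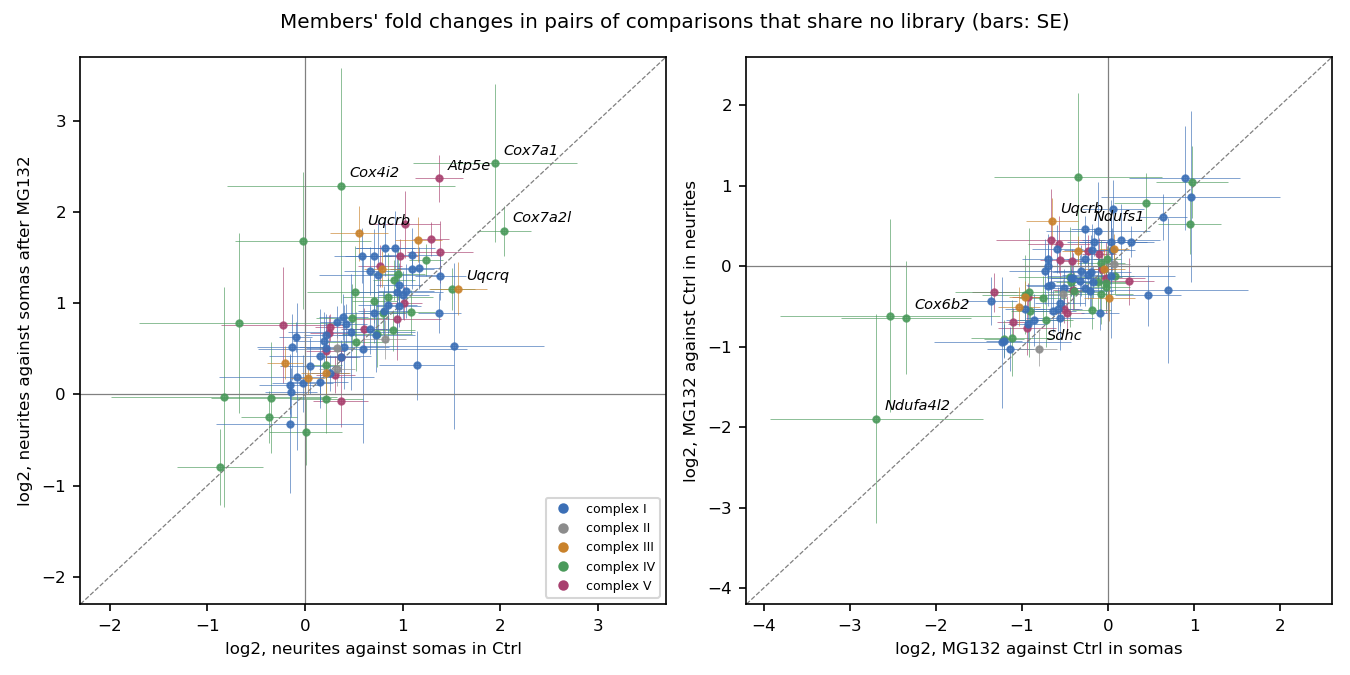
Log2 fold changes of the 95 tested members with SE bars, coloured by complex, for neurites against somas after MG132 against the same in Ctrl (left) and for MG132 against Ctrl in neurites against the same in somas (right), with the diagonal dashed. On the left 77 members are positive on both axes, and on the right 58 are negative on both.

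In somas some respiratory mRNAs fell after MG132. The test called 17 of 95 tested members (17.9%) as lower, where 11.9% of all tested genes were. None rose, against 15.5% of all genes. With positive sign, 3 members had an unadjusted p under 0.05 by edgeR and 2 by DESeq2, which called 0, and the fit with a replicate block called 1 (Cox10, a heme A synthesis enzyme for complex IV). The block raised the count of lower members to 29. With total counts 8 fell, and DESeq2 called 26. The median log2 fold change was -0.41 over members and -0.07 over all genes, and without MG132 somas replicate 2, the library with the fewest counts, 15 fell and the member median was -0.28. The 17 were Ndufc1, Ndufb3, Ndufv3, Ndufc2 and Ndufa1 of complex I, Sdha and Sdhc of complex II, Uqcr10 and Uqcrh of complex III, Cox6b2, Cox7b and Cox6b1 of complex IV, and Atp5e, Atp5mpl, Atp5k, Atp5j2 and Atp5j of complex V.

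The largest called change was that of Cox6b2, a form of complex IV subunit VIb known from testis. It was at 2.49, 3.88 and 2.54 CPM in Ctrl somas and at 0.648, 0.793 and 0.369 CPM in MG132 somas. The groups did not overlap (log2 -2.35 ± 0.76, adjusted p = 0.0315), but these MG132 values stand for 7, 4 and 9 reads, and the call was lost in 5 of 12 fits that left out a library. Its ubiquitous counterpart Cox6b1 fell from 79.5, 70.5 and 77.0 CPM to 43.5, 34.3 and 43.0 CPM (log2 -0.91 ± 0.22, adjusted p = 0.00664), a call kept in each of the 12 fits.

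Ndufc1, an accessory membrane subunit of complex I, was at 13.0, 11.6 and 12.5 CPM in Ctrl somas and at 3.33, 4.36 and 6.48 CPM in MG132 somas, a log2 change of -1.36 ± 0.30 (adjusted p = 0.00408). Atp5e fell from 23.0, 19.4 and 20.1 CPM to 7.77, 5.35 and 11.2 CPM, a log2 change of -1.32 ± 0.26 (adjusted p = 0.0016). Ndufb3, another accessory subunit, fell from 23.3, 23.9 and 27.4 CPM to 11.6, 9.12 and 11.2 CPM (log2 -1.21 ± 0.21, adjusted p = 0.000679). In all 3 members the groups were apart. Cox7b, a complex IV subunit, fell from 51.5, 37.3 and 42.1 CPM to 23.5, 13.3 and 19.3 CPM (log2 -1.21 ± 0.23, adjusted p = 0.00144). Sdha fell by 0.52 on the log2 scale (SE 0.18, adjusted p = 0.0469), a call lost in 10 of 12 fits without a library, and Atp5k by 0.94 (SE 0.34, adjusted p = 0.0495), lost in 9 of 12.

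In neurites 8 of 95 tested members (8.42%) fell after MG132, where 12.3% of all tested genes did, so members were called no more often than genes at large. None rose, against 14.7% of all genes. With positive sign, 3 members had an unadjusted p under 0.05 by edgeR and 2 by DESeq2. The member median was -0.20 against -0.16 for all genes. With total counts 4 fell. Without MG132 neurites replicate 3 also 4 fell, and 5 fell without any 1 of the Ctrl somas libraries, any 1 of the Ctrl neurites libraries or MG132 somas replicate 3. The 8 were Ndufv3, Ndufb3 and Ndufa1 of complex I, Sdhc of complex II, Cox7b of complex IV, and Atp5mpl, Atp5g3 and Atp5j of complex V. Of these, 7 also fell in somas, which is 87.5% of the neurite calls and 41.2% of the soma calls. Over all tested genes 1738 fell in neurites and 1694 in somas, and their overlap is not given here. Whether the members' overlap is particular to them was not tested. Both comparisons share no library, and the log2 fold changes correlated with r = 0.70 over the 95 members and 0.74 over all genes.

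Ndufv3, an accessory subunit of the NADH-binding module, was at 61.4, 43.4 and 55.3 CPM in Ctrl neurites and at 18.2, 25.1 and 34.6 CPM in MG132 neurites (log2 -1.03 ± 0.27, adjusted p = 0.0108). Sdhc fell from 77.8, 54.5 and 72.1 CPM to 30.1, 36.7 and 33.0 CPM (log2 -1.03 ± 0.22, adjusted p = 0.00281). Neither pair of groups overlapped. Ndufb3 fell from 28.8, 30.8 and 27.2 CPM to 16.6, 14.3 and 14.9 CPM (log2 -0.93 ± 0.21, adjusted p = 0.00431), and Cox7b from 68.3, 86.2 and 59.7 CPM to 35.1, 35.9 and 43.7 CPM (log2 -0.90 ± 0.23, adjusted p = 0.00903). Ndufa1, a small accessory subunit, was at 48.4, 47.9 and 48.3 CPM in Ctrl neurites and at 22.1, 33.7 and 31.8 CPM in MG132 neurites (log2 -0.72 ± 0.23, adjusted p = 0.0283), a call lost in 9 of 12 fits without a library. Atp5g3, the subunit c gene with the most counts, fell by 0.58 (SE 0.20, adjusted p = 0.0464) and lost its call in each of these fits.

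Ndufs1 ran the other way in neurites. Its 3 MG132 neurite libraries, at 102.7, 90.3 and 99.4 CPM, lay above the 3 Ctrl neurite libraries, at 78.9, 68.8 and 65.1 CPM. The log2 change of 0.46 ± 0.17 missed the threshold (adjusted p = 0.0545), while the fit with a replicate block called it (0.46, adjusted p = 0.0193), as did DESeq2.

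The difference of the MG132 response between neurites and somas was tested as an interaction. No member passed in either direction, and neither did any of the 14185 genes, so 0% of genes were called. At an unadjusted p under 0.05, 6 members were higher by edgeR, 8 by DESeq2 and 12 with the replicate block, and 0 were lower, with no call by any of them. By edgeR, 474 of all 14185 genes were higher and 526 lower at that unadjusted p. The median difference was 0.22 over members and -0.04 over all genes. The smallest p belonged to Ndufs1, at 0.73 ± 0.24 on the log2 scale (adjusted p = 0.487). Uqcrb had a larger difference of 1.21 ± 0.42 (adjusted p = 0.51), with a change of -0.65 ± 0.30 in somas (adjusted p = 0.119) and of 0.56 ± 0.29 in neurites (adjusted p = 0.176). Atp5e had a difference of 0.99 ± 0.35 (adjusted p = 0.533). Its neurite change of -0.33 ± 0.25 was not called (adjusted p = 0.351). Calls in a single fraction are therefore not shown to be particular to it.

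**Figure D3:**
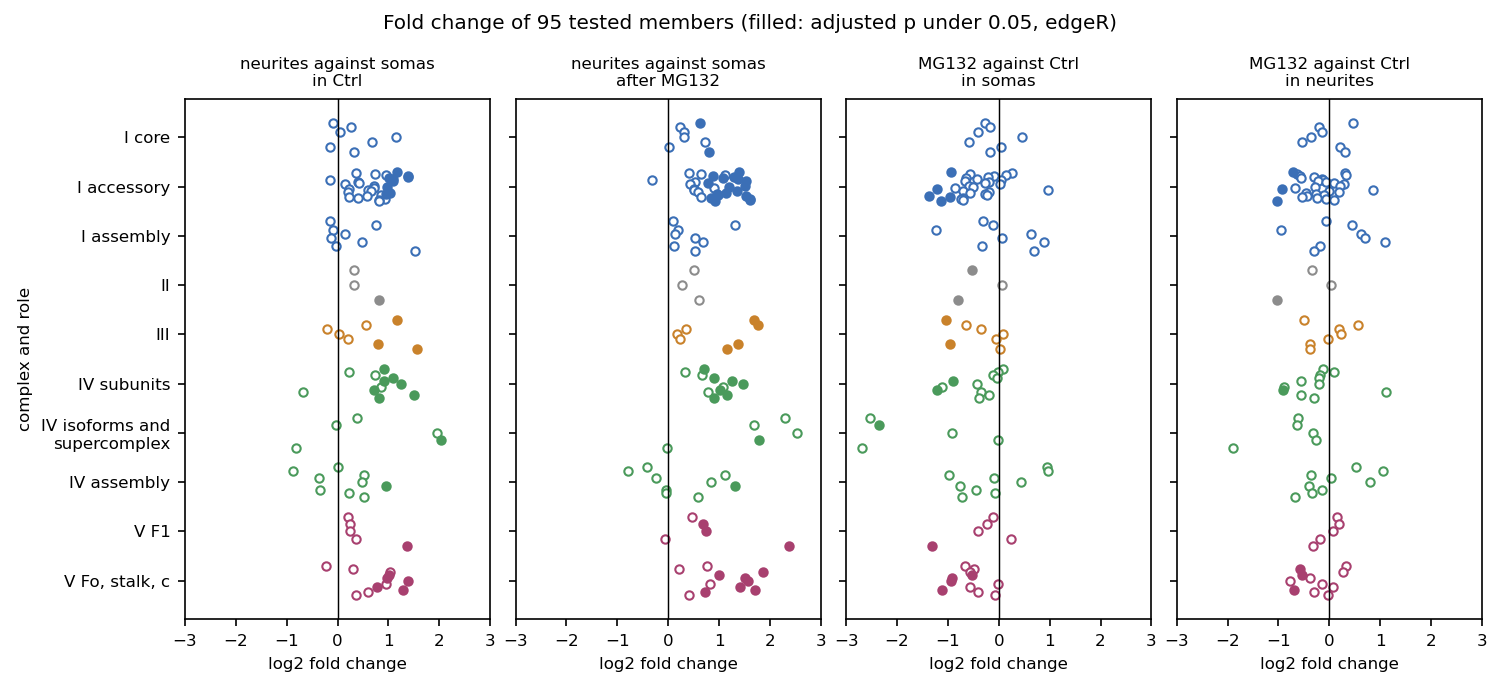
Log2 fold change (horizontal axis) of each tested member by complex and role in the 4 comparisons, with filled points for adjusted p under 0.05. With TMM factors filled points lie to the right in both neurite comparisons, where the member median with total counts was -0.06 in Ctrl and -0.01 after MG132, and to the left in both MG132 comparisons, and assembly factors hold 1 filled point in each of the neurite comparisons (Cox17) and none in the MG132 comparisons.

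Counts by role follow, with no test of the difference between roles. In complex I, 9 of 29 tested accessory subunits were higher in Ctrl neurites and 18 of 29 in MG132 neurites. Of the 7 core subunits, which hold the redox centres, 0 were called in Ctrl and 2 (Ndufs1 and Ndufv2) after MG132, and none of the 8 assembly factors was called in any comparison. In complex IV, 7 of 11 ubiquitous subunits were higher in neurites in Ctrl and 7 after MG132. Of its 9 assembly factors, Cox17, a copper chaperone, was called in both, at 0.95 ± 0.27 (adjusted p = 0.0281) and 1.32 ± 0.28 (adjusted p = 0.00436). In complex V, Atp5e was the single one of 5 F1 subunits called in Ctrl neurites, and 3 were after MG132. Of the 9 other Fo and stalk subunits, 7 were called after MG132. Over all complexes, 1 of 17 assembly factors and 27 of 78 tested subunits were called in Ctrl, and 1 and 42 after MG132. The medians for assembly factors were 0.16 and 0.20 and those for subunits 0.71 and 0.89.

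**Figure D4:**
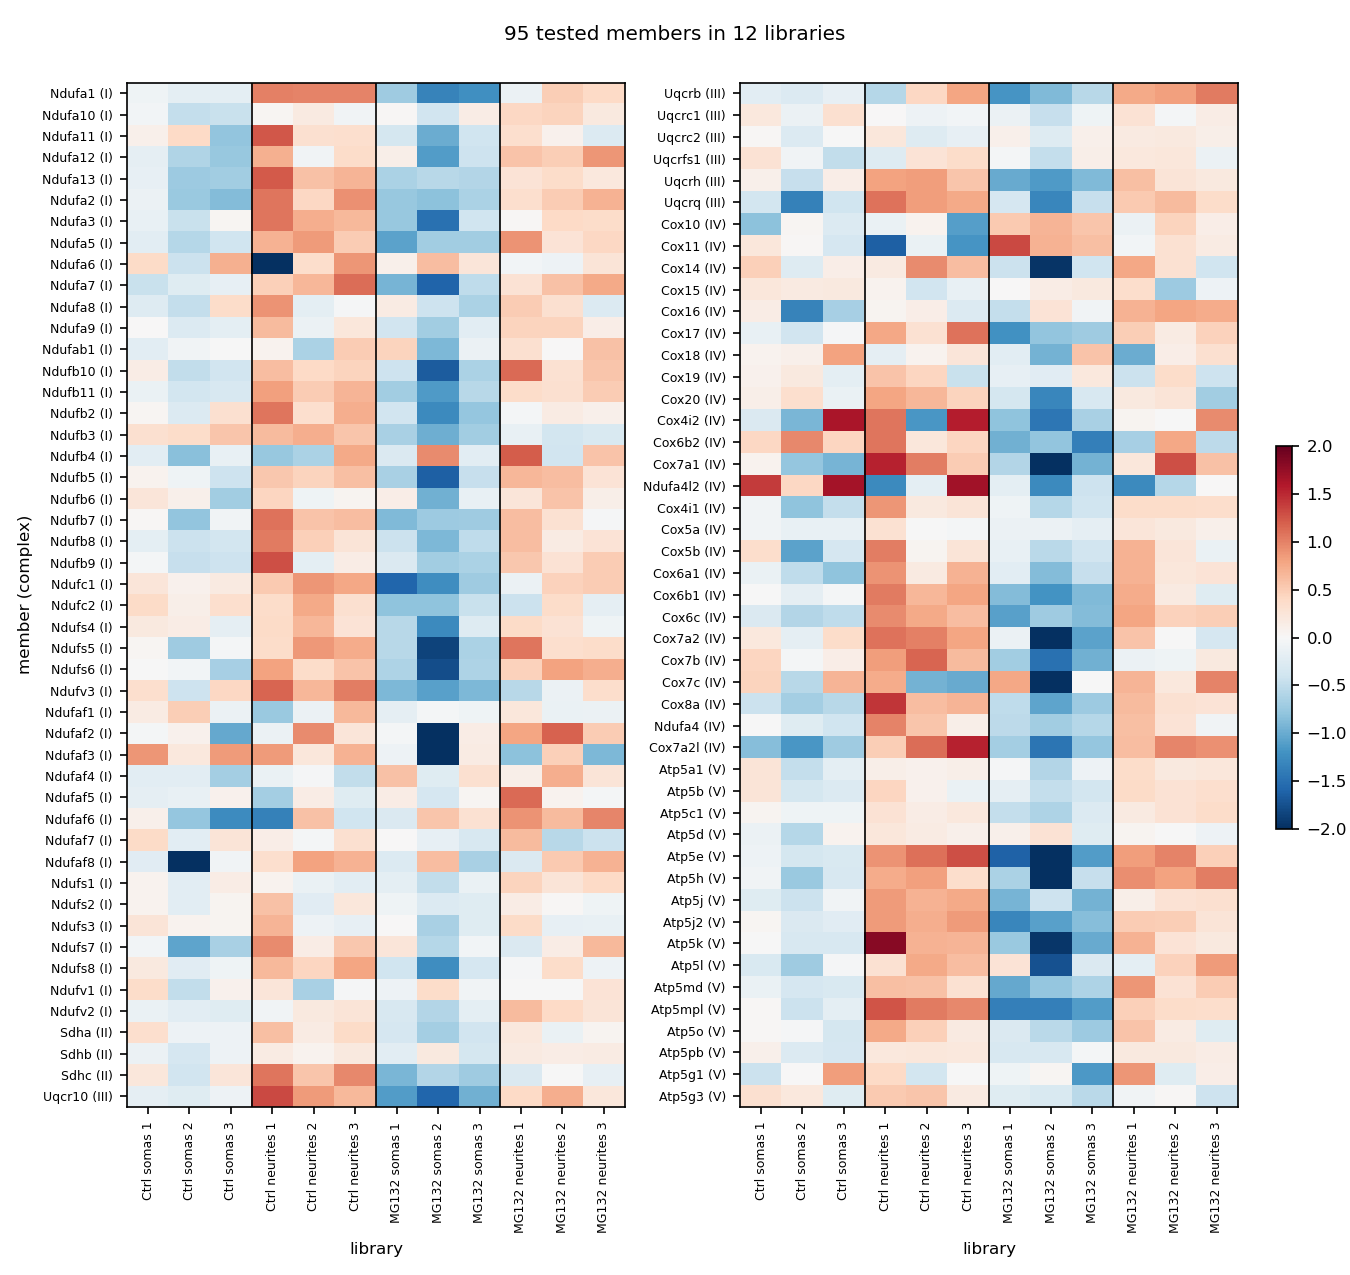
Each tested member's log2(CPM + 0.5) minus its mean over the 12 libraries, in rows ordered by complex, with libraries in columns grouped by black lines. With TMM factors neurite columns are redder than soma columns for most rows (with total counts the median differences were -0.06 and -0.01), and MG132 somas replicate 2, the library with the fewest counts (4247610), holds many of the lowest values.

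For several subunits with isoforms, the ubiquitous form had the higher level. Per kilobase in Ctrl somas, Cox4i1 was at 141.4 CPM and Cox4i2, a form of lung and of hypoxia, at 2.11 CPM. Cox6a1 stood at 79.3 and its muscle form Cox6a2 at 0.448, Cox6b1 at 122.5 and Cox6b2 at 4.53, and Ndufa4 at 80.9 and its hypoxia-induced relative Ndufa4l2 at 2.54 CPM per kb. Cox8a was at 64.2 CPM per kb, while Cox8b had reads in a single library and Cox8c in none. Among the genes for the c ring of ATP synthase, which encode the same mature peptide, Atp5g3 was at 76.6, Atp5g1 at 0.726 and Atp5g2 at 0.063 CPM per kb. Before division by exon length (724 bases for Atp5g3 and 4778 for Atp5g1), Atp5g3 was at 55.4 CPM and Atp5g1 at 3.47 CPM. In the Cox7a set no form stood far above the rest, with Cox7a2 at 12.02, the muscle form Cox7a1 at 2.38 and Cox7a2l at 15.6 CPM per kb. Levels other than those before division by length are in the same unit, CPM per kilobase of exon.

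Of these isoforms, Cox6a1 was higher in Ctrl neurites, at 116.9, 71.0 and 101.7 CPM against 56.8, 43.6 and 35.4 CPM in somas (log2 1.09 ± 0.24, adjusted p = 0.00649), and the log2 difference after MG132 was 0.90 ± 0.24 (adjusted p = 0.0171). Ndufa4, a complex IV subunit despite its name, was called in both as well, at 0.80 ± 0.23 (adjusted p = 0.0264) and 0.90 ± 0.23 (adjusted p = 0.0136). Cox7a2 was not called in any comparison, but the replicate block called it lower in somas after MG132 (adjusted p = 0.0248, against 0.0933 without the block), as did DESeq2 and the fit without MG132 somas replicate 1. The block and that fit also called it higher in neurites after MG132 (adjusted p = 0.0441 with the block, against 0.141). Cox7a1 reached 2.54 ± 0.87 after MG132 without a call (adjusted p = 0.0563), on 0 to 13 reads per library in MG132 somas, while the block (adjusted p = 0.0434) and DESeq2 called it. Ndufa4l2 was at 2.69, 1.11 and 3.31 CPM in Ctrl somas and at 0.555, 0 and 0.410 CPM in MG132 somas, with no call (adjusted p = 0.122). Cox4i2 varied from 0 to 3.75 CPM within and between groups and was not called.

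Transcript length moved with these differences. Tested members had a median exon length of 865 bases (315 to 4798) against 3305 bases for 13210 other tested coding genes. In Ctrl, the median neurite log2 difference of members was 0.95 up to 600 bases, 0.74 from 600 to 1000, 0.29 from 1000 to 2000 and 0.21 above 2000. Other coding genes gave 0.93, 0.47, 0.11 and -0.11 in the same bins. After MG132 the member medians were 1.39, 0.90, 0.60 and 0.47 and those of other genes 1.22, 0.53, 0.18 and -0.18. The medians of short members and other short genes were thus close, and those in the longer bins lay further apart. The last bin held 13 members.

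Calls in the 4 bins were 14 of 25, 8 of 29, 4 of 28 and 2 of 13 members in Ctrl, where 29.3%, 16.9%, 8.89% and 9.96% of other coding genes were higher in neurites. After MG132 they were 18 of 25, 12 of 29, 11 of 28 and 2 of 13, beside 32.9%, 20%, 12.8% and 10.2%. The response to MG132 also ran with length. In somas 7 of 25, 6 of 29, 2 of 28 and 2 of 13 members fell, where 22%, 16.2%, 11.7% and 11.9% of other coding genes did. In somas the member medians were -0.69, -0.48, -0.21 and -0.09, beside -0.59, -0.47, -0.20 and -0.00115 for other genes. In neurites they were -0.33, -0.30, -0.03 and 0.30, beside -0.47, -0.34, -0.17 and -0.12. Across the 95 members, Spearman's rho between length and log2 fold change was -0.53 and -0.61 in the neurite comparisons of Ctrl and MG132 and 0.45 and 0.38 in the MG132 comparisons of somas and neurites. Over other coding genes it was -0.14, -0.21, 0.11 and 0.04. These are descriptions across genes measured in the same libraries, and the bins were chosen with the data in view. The part that length has in the members' calls was not tested.

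**Figure D5:**
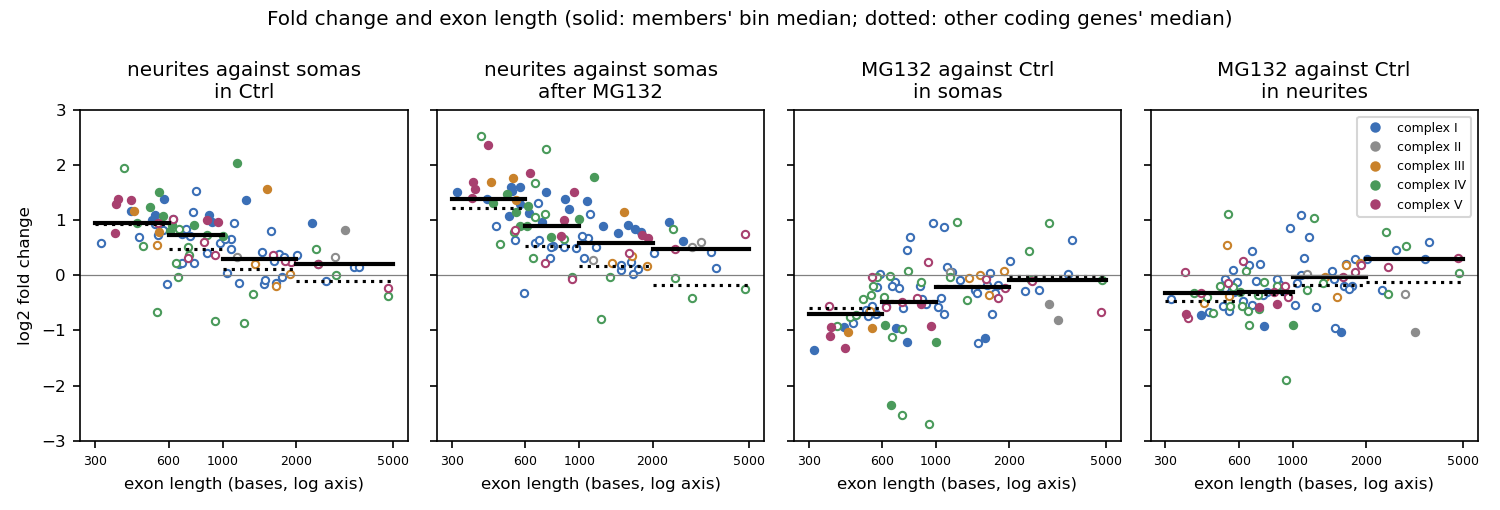
Log2 fold change of each tested member against exon length in bases (log axis) in the 4 comparisons, coloured by complex and filled where the adjusted p is under 0.05, with solid lines for the members' median and dotted lines for the median of other tested coding genes in 4 length bins. Both lines fall with length in the neurite comparisons, from 0.95 to 0.21 for members in Ctrl, and both rise with length in the MG132 comparisons.

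Calls were counted by promoter motif as a description, with no test. Of 37 tested members with an NRF1 or ETS match in the promoter, 10 were higher in Ctrl neurites and 16 in MG132 neurites, and of 41 without one, 11 and 18 were. In somas after MG132, 6 of those with a match and 9 of those without fell. The separate motifs differed in direction in somas after MG132 and in Ctrl neurites, on small counts. In somas after MG132, 2 of 19 members with NRF1 letters and 13 of 59 without fell, while 5 of 22 with ETS letters and 10 of 56 without did. In Ctrl neurites 3 of 19 members with NRF1 letters and 18 of 59 without were higher, while 9 of 22 with ETS letters and 12 of 56 without were. After MG132 they were 9 of 19 with NRF1 letters and 25 of 59 without, and 10 of 22 with ETS letters and 24 of 56 without. For both motifs the shares with and without the letters were then close. Of 9 members with YY1 letters, 3 fell in somas, against 12 of 69 without.

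The mRNAs of the mitochondrial genome, which encode the partner subunits of complexes I, III, IV and V, were tested for 8 of 13. COX2, COX3, ATP6 and ATP8 were at 0 CPM in every library and ND4L at most at 1.85 CPM. No complex V subunit was thus tested, and COX1 was the only tested one of complex IV. These low values are given as listed and not as absence of the mRNA. In neurites 6 of 8 were higher in Ctrl (median log2 1.44) and 8 of 8 after MG132 (median 1.59), while with total counts these medians were 0.68 and 0.73 with 0 called. None was called for MG132 in either fraction. COX1, the catalytic subunit of complex IV, was at 15470, 8816 and 10110 CPM in Ctrl somas and at 44120, 21350 and 33790 CPM in Ctrl neurites (log2 1.53 ± 0.34, adjusted p = 0.00627). Cyc1, a subunit of complex III, and Cycs, which carries electrons from complex III to complex IV, were not called in any comparison. Cyc1 had log2 differences between -0.39 and 0.58.

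Several regulators of respiratory gene transcription rose after MG132. Of 12 tested, 5 rose in somas and 4 in neurites (2 and 1 with total counts), where 15.5% and 14.7% of all genes rose. None was called lower, but 2 in somas and 4 in neurites had a negative sign. Among them Ppargc1a averaged 33.2 CPM in Ctrl and 21.7 CPM in MG132 somas, and 24.6 and 15.5 CPM in neurites. Tfb1m was also lower in both fractions. None of the 12 was called between fractions with TMM factors. With total counts 2 and 4 were lower in neurites in Ctrl and after MG132. Gabpb1, the beta subunit of GABP, was at 6.42, 11.4 and 8.49 CPM in Ctrl somas and at 24.1, 21.4 and 23.5 CPM in MG132 somas (log2 1.40 ± 0.30, adjusted p = 0.0033), and rose by 1.99 ± 0.32 in neurites (adjusted p = 0.000328). Pprc1, a PGC-1-related coactivator, rose by 1.57 ± 0.32 in somas (adjusted p = 0.00207) and by 1.28 ± 0.33 in neurites (adjusted p = 0.00993). Tfam, which packages and transcribes mitochondrial DNA, rose by 0.94 ± 0.22 (adjusted p = 0.0049) and 1.05 ± 0.22 (adjusted p = 0.00234). Gabpa rose by 0.54 ± 0.19 (adjusted p = 0.0498) and 0.97 ± 0.20 (adjusted p = 0.002), and Nrf1 by 0.96 ± 0.33 in somas (adjusted p = 0.041), with 0.66 ± 0.33 in neurites (adjusted p = 0.158).

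Other lists of mitochondrial and energy genes gave the following counts with TMM factors. Over all tested genes, 15.5% rose and 11.9% fell in somas after MG132, and 14.7% rose and 12.3% fell in neurites. In neurites against somas 10.2% of all genes were higher in Ctrl and 11.4% after MG132. Of 32 tested assembly and stability factors of the chain outside the naming rule, 1 rose and 7 fell in somas after MG132, 1 rose and 5 fell in neurites, and 4 and 5 were higher in neurites in Ctrl and after MG132. Among them Coa5 (log2 2.02 ± 0.22, adjusted p = 1.53e-05) and Higd1a (2.25 ± 0.27, adjusted p = 4.38e-05) had large neurite differences in Ctrl. They were chosen after their values were seen. Of 17 genes of the TCA cycle and pyruvate dehydrogenase, 3 rose in somas and 4 rose and 1 fell in neurites, and 1 and 3 were higher in neurites in Ctrl and after MG132. Of 17 glycolytic genes, none rose, 9 fell in somas and 6 fell in neurites, while 0 and 2 were higher in neurites. Of 22 protein import genes, 3 rose in somas, 3 rose and 3 fell in neurites, and 5 and 3 were higher in neurites. Of 76 mitochondrial ribosomal protein genes, 7 rose and 2 fell in somas, 15 rose and 1 fell in neurites, and 7 and 13 were higher in neurites. Of 78 cytoplasmic ribosomal protein genes, which are also short, 52 and 41 were higher in neurites in Ctrl and after MG132 (medians 1.64 and 1.20), and 15 and 2 rose with MG132 in somas and neurites. With total counts 30 and 1 of these were higher in neurites and 0 and 1 rose with MG132. In the other 5 lists the neurite medians turned from positive to negative with total counts in both conditions, as the members' did. With that scaling fewer genes of these lists were called for MG132. The mitochondrial ribosomal proteins had 2 higher and 0 lower in somas and 3 and 1 in neurites, with 0 higher between fractions. The other chain factors had 0 higher and 1 lower in somas and 0 and 2 in neurites, and the import genes 0 and 0 in somas and 1 and 1 in neurites. The TCA cycle genes had 1 and 0 in each fraction, and 6 and 4 glycolytic genes fell.

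Markers of other cells moved with the fractions. Over all tested genes, 11.9% fell in somas and 12.3% in neurites with MG132. In neurites against somas 10.2% of all genes were higher and 4.65% lower in Ctrl, and 11.4% and 6.35% after MG132. All 10 neuron markers and 4 hippocampal markers were detected in each library. For MG132, 0 neuron markers were called in either fraction, and in neurites 1 was higher and 1 lower in Ctrl and 1 and 2 after MG132. Of the hippocampal markers 1 was higher in neurites in Ctrl, and 1 was lower in neurites after MG132 as well as with MG132 in neurites. With total counts 6 and 7 neuron markers, 3 and 2 hippocampal markers and 1 and 5 microglia markers were lower in neurites in Ctrl and after MG132, and 0 of each were higher. In bulk samples, fewer cells of a type and less RNA per cell cannot be told apart. The summed level of 8 astrocyte markers was 4733 to 5910 CPM in Ctrl somas, 20920 to 26050 in Ctrl neurites, 2483 to 3255 in MG132 somas and 9697 to 19880 in MG132 neurites, with 4 higher and 1 lower in neurites in Ctrl (2 and 2 with total counts), 5 and 1 after MG132 (2 and 1 with total counts), and 6 and 3 lower with MG132 in somas and neurites. The sum of 8 oligodendrocyte markers was 1406 to 6267, 5058 to 22640, 471 to 5774 and 2899 to 16340 CPM in the same order, with 1 and 0 higher in neurites and 4 and 4 lower with MG132. The sum of 8 microglia markers was 587 to 748, 583 to 1160, 158 to 301 and 91.0 to 227 CPM, with 1 and 0 higher in neurites and 3 and 7 lower with MG132. The sum of 7 endothelial and fibroblast markers was 197 to 257, 47.9 to 109, 59.5 to 92.2 and 28.6 to 48.7 CPM, with Cldn5 at 0 in 11 of 12 libraries and, of 5 tested, 4 and 1 lower in neurites and 5 and 3 lower with MG132. Of 5 nuclear RNAs, 4 were lower in neurites in each condition. The part of these markers in the members' values was not tested.

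Summed over all 104 members, which needs no filter, the level was 2720 to 3583 CPM in Ctrl somas, 4339 to 5256 in Ctrl neurites, 2146 to 2670 in MG132 somas and 4016 to 4478 in MG132 neurites. Both neurite ranges lay above both soma ranges, and MG132 somas lay below Ctrl somas. By complex the largest sum in Ctrl somas was that of complex V, at 937 to 1313 CPM, followed by complex I at 810 to 1003 CPM. Complex IV stood at 1008 to 1299 CPM in Ctrl neurites against 524 to 675 CPM in Ctrl somas. These sums are dominated by Atp5b and other highly expressed members, and no test was made on them.

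Sequence shared with other genes limited some members. Of 102 members with a transcript sequence, 60 shared none of their 75-base windows with another gene, and 12 tested members shared over 25%. Without these 12, the calls among 83 members were 17 lower in somas, 8 lower in neurites, 27 higher in Ctrl neurites and 39 higher in MG132 neurites. Of the 95 tested members, 46 were not called in any comparison.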

How the data were processed

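RNA was measured in 12 libraries, 3 in each of 4 groups given by the labels. Each deposited table lists raw read counts by Entrez gene, in whole numbers. To make these counts, the authors trimmed reads with Trimmomatic 0.38.0, aligned them as single-end reads to mm10 with STAR, and counted with featureCounts 2.0.1 at default parameters. The annotation and strand setting are not given in the sources used here. The authors tested with DESeq2 2.11.40.7.

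Symbols came from RefSeq (93.0% of ids matched). The rule also names Ndufb1, which was not analysed here, and 5 pseudogenes were left out. Testing used edgeR 4.0.16 under R 4.3.3 (filterByExpr by group, TMM factors, quasi-likelihood test, 1 model of 4 group means over 12 libraries), and p-values were adjusted by Benjamini-Hochberg over 14185 tested genes. Genes were called at an adjusted p under 0.05. Standard errors came from the F statistic. The script was tested on simulated data. The members and lists were chosen with earlier results of these data known.

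In each comparison, the 5 called members with the largest positive and negative changes (mean of at least 1 CPM), isoform sets, 1 reference subunit per complex and the 3 smallest interaction p were named. Other names account for every called member or were chosen after their values were seen. Replicate numbers are shared between groups. Same-numbered libraries deviated together from group means in the 12 pairs of the 4 comparisons (r 0.165 to 0.248). Over all 18 same-numbered pairs, r was 0.0972 to 0.248. Alternatives were other scalings, DESeq2 1.42.0, no filter, a replicate block, each library left out, and stricter thresholds. Intervals and counts cover these libraries alone, and the depth per library limits members with few reads.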

Additional observations from a re-analysis of the deposited data

How the results depend on the processing

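With total counts without TMM factors, lower members numbered 8 in somas and 4 in neurites for MG132, and in neurites against somas 1 was higher and 2 lower in Ctrl and 3 and 2 after MG132. With total counts of nuclear genes without the gene with the most counts, an alternative added after seeing the data, these were 10 higher and 4 lower in Ctrl and 24 and 1 after MG132. Neurite differences after MG132 changed sign with total counts for Cox4i1 (-0.10), Ndufs1 (-0.18) and Atp5b (-0.13). The replicate block gave 29 lower and 1 higher in somas and 1 higher in neurites for MG132, and DESeq2 gave 26 lower in somas and 1 higher in neurites. Without a count filter, neurites had 1 higher and 4 lower. At an adjusted p under 0.01, 4 of 95 members fell in neurites, where 5.67% of all genes did. At that threshold 14 were higher in Ctrl neurites and 28 after MG132, against 6.3% and 7.2% of all genes. With a 1.7-fold minimum these counts were 3, 14 and 27, against 5.44%, 6.15% and 6.92% of all genes. With an absolute log2 change over 1.7, 0 fell in somas and 0 fell in neurites, against 2.43% and 2.19% of all genes. With that minimum 1 and 5 were higher in neurites in Ctrl and after MG132, against 2.12% and 2.04% of all genes. Shares of all genes under the other alternatives are not given here.

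Leaving out 1 library gave 0 to 1 higher and 12 to 17 lower members in somas for MG132, and 0 to 1 higher and 4 to 7 lower in neurites, with 4 without MG132 neurites replicate 3. In neurites against somas it gave 14 to 31 higher and 0 to 1 lower in Ctrl, with 14 without Ctrl somas replicate 2 and 16 without Ctrl somas replicate 3, and 33 to 44 higher after MG132. The interaction stayed at 0 in all of these fits. For the called changes of named members, 810 of 988 values under an alternative kept direction and call, 175 kept direction alone and 3 changed sign. The causes were not tested, other than fewer samples in each fit that left out a library. The block changed no other count by over 1.5 times.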
